A study of Mus musculus with 6 samples.

Results

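Complex I of the mitochondrial respiratory chain was followed through 45 nuclear genes, out of 18158 features listed in a table of mRNA levels from mouse heart ventricles. The genes are all those whose symbol begins with Nduf followed by the letter of a subunit class (a, b, c, s, v, ab) or of the assembly factors (af) and a number. The rule reads the symbol alone, and 36 of the genes encode structural subunits, 7 encode assembly factors, and Ndufa4 and its paralog Ndufa4l2 make up the rest. RNA came from 6 mice of the outbred CD1 stock aged 3 months, with 1 library per mouse and no allele or transgene named. The 3 Paro/Neo mice were given the aminoglycoside antibiotics paromomycin and neomycin together, at 150 mg/kg 2 times a day by the intraperitoneal route over 14 days, and the labels do not say whether that dose is for each drug or for the pair. The 3 vehicle mice received PBS over the same 14 days. The study's design text places the comparison in the setting of suppressed Meis1 and Hoxb13 activity.

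Complex I takes electrons from NADH, passes them through a flavin and a chain of iron-sulfur clusters to ubiquinone, and pumps protons across the inner mitochondrial membrane. Its L shape has an arm in the matrix, with the N module that oxidises NADH and the Q module that reduces ubiquinone, and a membrane arm with a proximal and a distal part. The conserved catalytic core is surrounded by supernumerary subunits that stabilise the complex, and assembly factors help to build it and leave before it is complete. Heart muscle is rich in mitochondria and depends on this chain for most of its ATP. The membrane core is encoded by mitochondrial DNA, and those transcripts were not analysed here.

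Levels are in TPM, a share of all transcripts corrected for transcript length, a unit that sums to the same total in each library. Steps between low values put the depth at 12421206 to 15575723 reads in the Paro/Neo libraries and at 9556387 to 15969980 reads in the vehicle libraries. Cardiomyocyte markers fixed for this tissue were abundant in all 6 libraries, with the ventricular myosin light chain gene Myl2 at 51694 to 69835 TPM in Paro/Neo hearts and at 55269 to 58925 TPM in vehicle hearts. The library of Paro/Neo replicate 1 stood apart from the others. The SD of its distances from the vehicle mean was 0.439 over the 12409 genes tested, on the log2(TPM + 1) scale, against 0.279 and 0.328 in Paro/Neo replicates 2 and 3. For many of the results that it moves, the value without it is given as well. In ventricle tissue as a whole, fewer cells of a type and less RNA per cell cannot be told apart.

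The promoters below show what stands upstream of the genes that the results turn on. They belong to Ndufaf3, Ndufa11 and Ndufs8, the 3 genes with the smallest p in the comparison, and to Ndufaf5 and Ndufaf4, which with Ndufa11 hold the binding motif of NRF1, a transcription factor known to drive respiratory chain genes. Each runs 5′ to 3′ on the strand of its gene, 250 bases before to 50 after the start, from RefSeq on GRCm38.p6. Capitals mark matches to any of the 4 motifs searched on both strands.
Ndufaf3 (chr9:108567387-108567686, minus strand): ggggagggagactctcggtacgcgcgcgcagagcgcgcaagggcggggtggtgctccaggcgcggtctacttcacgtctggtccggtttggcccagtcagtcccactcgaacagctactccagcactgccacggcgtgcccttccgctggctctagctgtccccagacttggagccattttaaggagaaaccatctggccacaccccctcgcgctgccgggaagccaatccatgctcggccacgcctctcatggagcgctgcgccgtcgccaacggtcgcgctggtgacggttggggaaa
Ndufa11 (chr17:56717512-56717811, plus strand): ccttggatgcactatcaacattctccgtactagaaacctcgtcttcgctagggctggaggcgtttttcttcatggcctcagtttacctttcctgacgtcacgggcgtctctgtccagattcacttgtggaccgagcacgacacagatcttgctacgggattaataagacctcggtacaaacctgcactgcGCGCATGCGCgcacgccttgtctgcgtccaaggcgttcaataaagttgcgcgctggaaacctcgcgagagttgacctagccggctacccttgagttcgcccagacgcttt
Ndufs8 (chr19:3912725-3913024, minus strand): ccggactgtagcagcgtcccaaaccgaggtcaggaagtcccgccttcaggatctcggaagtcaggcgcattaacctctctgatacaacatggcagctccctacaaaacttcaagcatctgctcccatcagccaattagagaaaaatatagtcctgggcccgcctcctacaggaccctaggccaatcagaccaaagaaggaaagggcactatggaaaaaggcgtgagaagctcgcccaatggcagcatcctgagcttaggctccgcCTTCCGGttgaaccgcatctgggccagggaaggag
Ndufaf5 (chr2:140170396-140170695, plus strand): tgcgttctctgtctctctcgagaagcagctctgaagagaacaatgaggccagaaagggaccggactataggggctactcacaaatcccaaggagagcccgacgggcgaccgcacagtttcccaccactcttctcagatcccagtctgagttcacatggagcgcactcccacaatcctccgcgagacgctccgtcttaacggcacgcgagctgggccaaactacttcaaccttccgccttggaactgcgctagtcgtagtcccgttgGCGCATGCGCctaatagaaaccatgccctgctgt
Ndufaf4 (chr4:24897833-24898132, plus strand): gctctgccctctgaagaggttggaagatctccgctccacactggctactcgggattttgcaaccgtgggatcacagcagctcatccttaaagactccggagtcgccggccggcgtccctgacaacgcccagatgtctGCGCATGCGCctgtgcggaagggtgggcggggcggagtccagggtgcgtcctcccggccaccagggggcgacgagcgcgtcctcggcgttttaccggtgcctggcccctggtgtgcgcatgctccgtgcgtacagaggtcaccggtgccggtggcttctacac

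The motifs searched were the palindromic site of NRF1 (the capitals in Ndufa11, Ndufaf5 and Ndufaf4), CCGGAAG for the ETS family that includes GABP, AAGATGG for YY1 and AAGGTCA for nuclear receptors such as the ERR family. All are known from genes of the respiratory chain, and no promoter printed holds more than 1 match, so none overlaps another there. A promoter was listed for 39 of the 45 genes. The NRF1 motif was in 3 of the 39 (7.69%), against 2.36% of the 9205 tested genes with a promoter and 0.971% of all 32851 windows. The ETS motif was in 5 genes (12.8%, against 19.95% of tested genes and 8.86% of all windows). The YY1 motif was in 7 genes (17.95%, against 8.33% of tested genes and 6.34% of all windows). The nuclear receptor motif was in 3 genes (7.69%, against 3.93% of tested genes and 4.72% of all windows). In Ndufa11 the NRF1 match lay 60 to 51 bases before the start, in Ndufaf4 113 to 104 bases before it, and in Ndufaf5 at bases 17 to 26 after it. Ndufs8 held the ETS motif on the opposite strand at bases 16 to 22, and Ndufaf3 held none of the 4.

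Together the 45 genes took 4.89%, 4.495% and 4.51% of all TPM in Paro/Neo replicates 1 to 3, against 4.45%, 4.96% and 4.59% in vehicle replicates 1 to 3. The groups overlapped in that share. The 36 structural subunits averaged 90.2 to 3380 TPM over the 6 libraries, with a median of 974 TPM, and 28 of them lay above 500 TPM. Assembly factors were far less abundant, at 29.3 to 145 TPM with a median of 48.6 TPM. Among subunits, Ndufa5, a supernumerary subunit of the matrix arm, was the most abundant, and Ndufab1, the mitochondrial acyl carrier protein, was the least, 37.5-fold below it. Ndufa4, first assigned to complex I and now known as a subunit of complex IV, stood above all of them at 6375 TPM.

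The order of the levels was nearly the same in both groups, with a Spearman coefficient of 0.994 between the group means over the 45 genes, as a description. Of 44 neighbouring pairs in that order, 14 stood in the same order in all 6 libraries, among them Ndufa5 above Ndufb8 and Ndufb9 above Ndufa6, and the other 30 changed places in at least 1 library. The ranges over 6 libraries did not overlap in 3, namely Ndufa4 above Ndufa5, Ndufab1 above Ndufaf3, and Ndufaf7 above Ndufaf5.

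**Figure D1:**
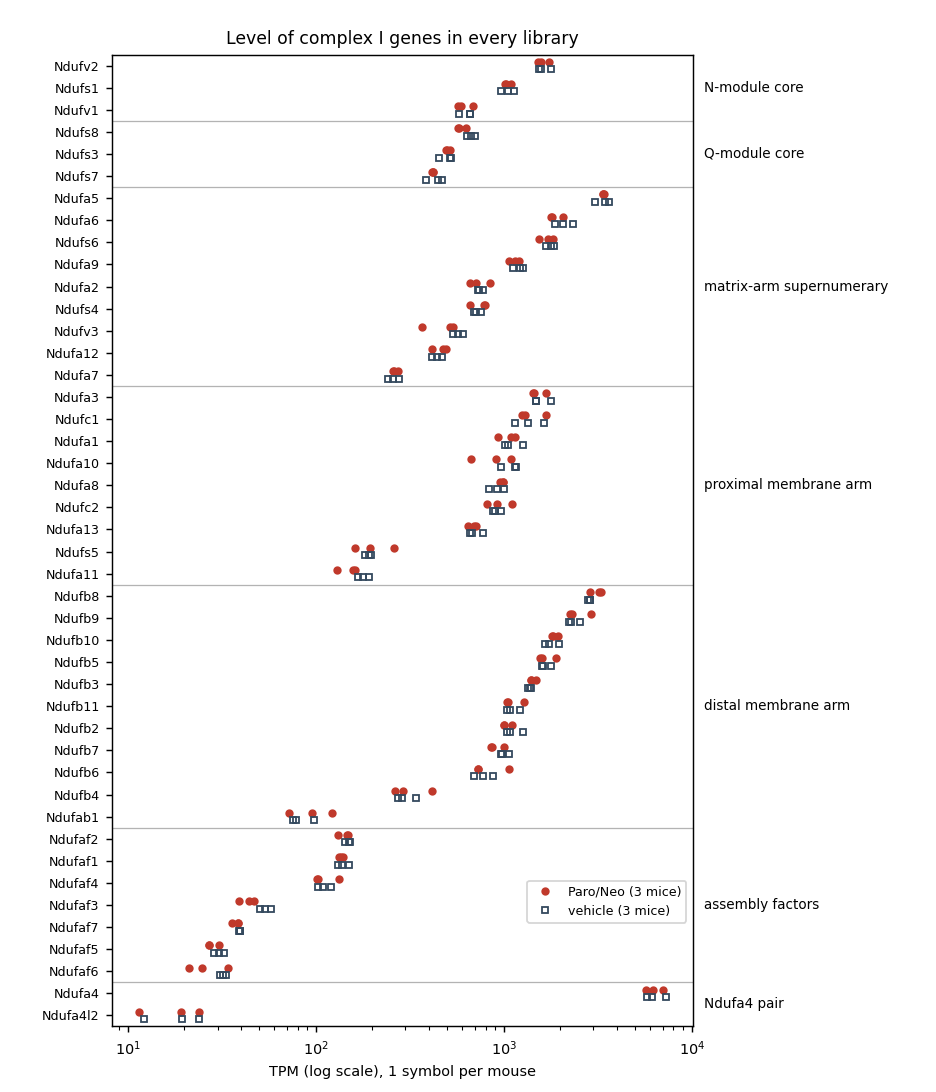
TPM of the complex I genes reported on here, on a log axis, with filled circles for the 3 Paro/Neo mice and open squares for the 3 vehicle mice, in blocks by role. Symbols of the groups lie over each other for most genes, and assembly factors sit below nearly all subunits.

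A TPM value depends on the transcript length that was divided out, and for some subunits this matters for the order. Ndufa11, a subunit of the proximal membrane arm, had 17983 reads over the 6 libraries and Ndufb7 of the distal arm had 21069, yet Ndufa11 averaged 164 TPM and Ndufb7 averaged 958 TPM. The authors' values imply a length for Ndufa11 of 3.33 times the median of the 45 genes, whereas its annotated exons in GENCODE M21 are 0.636 times the median. For Ndufab1 the implied length was equal to the median and the annotated exons were 4.01 times the median. Levels of these genes set against other genes therefore carry the choice of gene model, while comparisons of 1 gene between libraries do not.

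Several members also have near-identical copies elsewhere in the genome. Of the 45, 9 shared at least 1 window of 76 bases, the read length, with a processed pseudogene. The shares were largest for Ndufb4, where 35.2% of windows recur in Ndufb4c, Ndufs3 with 26.8% in Gm12251, Ndufs5 with 23.8% in BC002163 and Ndufa12 with 21.8% in Gm15920. Ndufab1 shared 9.31% of its windows with Gm4459. Windows were also shared with protein-coding genes. The shares were largest for Ndufb6 with 31.2% in Smim27, Ndufa13 with 25.5% in Tssk6 and Ndufb9 with 20.2% in Gm49356. How reads with several matches were counted is not given in the sources used here, so the levels of these genes are uncertain. Exons of 17 members overlap a gene on the opposite strand, and the strand setting of the counting is not given either. Exons of 3 members, Ndufb9, Ndufb2 and Ndufb8, overlap a gene on the same strand.

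**Figure D2:**
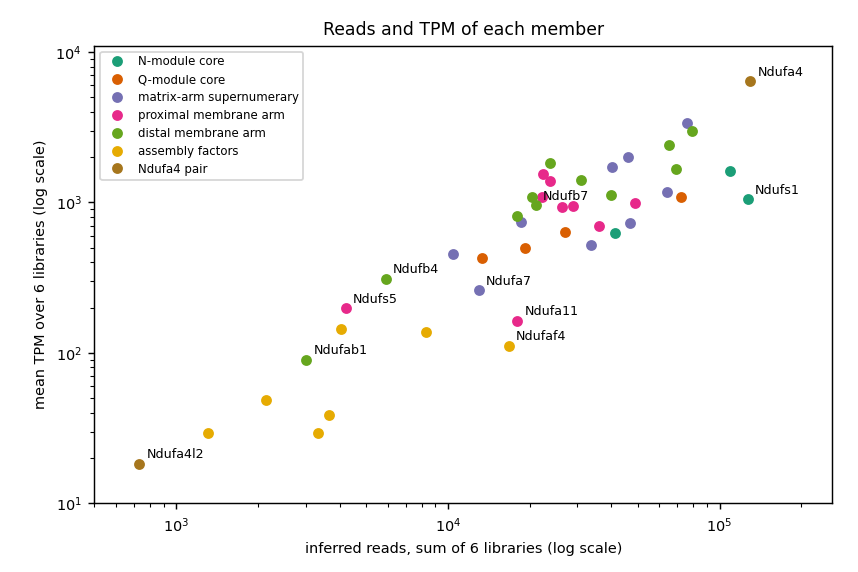
Mean TPM against the reads summed over 6 libraries for each gene, both on log axes, coloured by role. Ndufa11 lies below subunits of similar read number, and Ndufab1, Ndufs5 and Ndufb4 are the subunits with the fewest reads.

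No complex I gene passed the threshold between Paro/Neo and vehicle hearts. All 45 were above the filter on low values (1 TPM or more in at least 3 libraries) and 0 of them had a Benjamini-Hochberg adjusted p under 0.05 by limma on log2(TPM + 1), in either direction, against 0.137% of the 12409 genes tested (0.121% higher and 0.0161% lower in Paro/Neo hearts). The adjusted p of the members ran between 0.511 and 0.998. Without adjustment 1 of 45 had p under 0.05, or 2.22%, against 7.61% of all genes tested (3.24% higher and 4.37% lower). The groups did not overlap for 5 members, 1 higher and 4 lower, or 11.1%, against 14.3% of all genes tested (6.04% higher and 8.22% lower), and these shares are near or under the background. Means were lower in Paro/Neo hearts for 25 members and higher for 20, so 55.6% were lower, against 53.7% of all genes. The median log2 change was -0.03 over the members and -0.02 over all genes tested.

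A p above the threshold does not show that levels were equal, so the 95% intervals are given. In 32 of 45 genes the log2 change was smaller than 0.1 in size. The interval lay within a 1.5-fold change in either direction for 40 members, or 88.9%, against 70.7% of all genes tested, and within a 2-fold change for all 45, against 93.9%. These limits were chosen after the values were seen. The median distance from the estimate to either end of the interval was 0.25 for the members and 0.33 for all genes tested, in log2 units. Genes of similar level were not set beside the members. The 5 genes whose interval reached beyond a 1.5-fold change were Ndufa10, Ndufv3, Ndufaf6, Ndufab1 and Ndufa4l2.

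**Figure D3:**
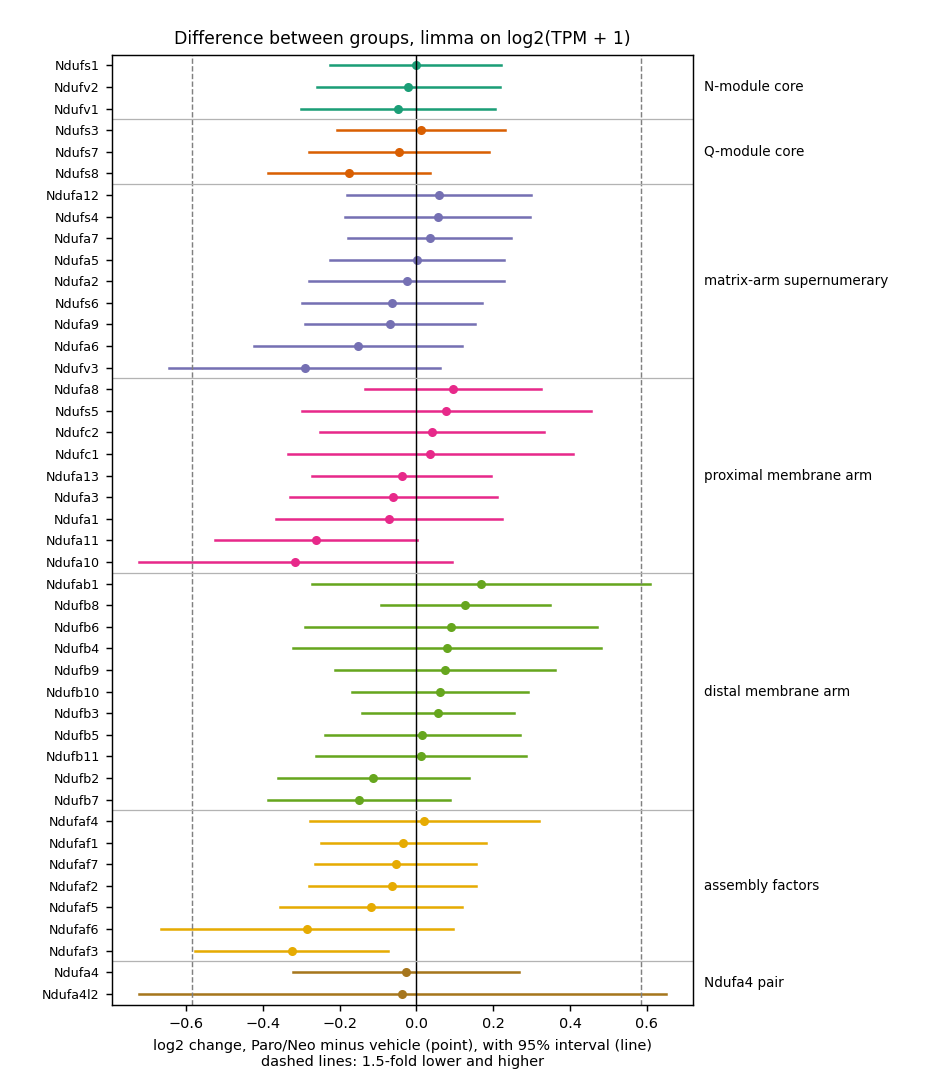
Log2 change of the complex I genes reported on here, Paro/Neo minus vehicle, with its 95% interval from limma (3 mice per group), in blocks by role. The interval of Ndufaf3 is the only one that leaves out 0, and all but 5 intervals lie between the dashed lines of a 1.5-fold change.

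In the N module, which oxidises NADH, all 3 core subunits differed by less than 0.05 in log2 units. Ndufv1, which carries the flavin, had 568, 683 and 591 TPM in Paro/Neo hearts and 660.2, 578 and 665 TPM in vehicle hearts. Its groups overlapped, with 1 vehicle heart below 2 of the treated hearts, at a log2 change of -0.05 with a 95% interval of -0.30 to 0.20. Ndufv2, an iron-sulfur protein and the most abundant of the 3, had 1733, 1513 and 1572 TPM in Paro/Neo hearts and 1540, 1783 and 1569 TPM in vehicle hearts. The high value in each group came from a single mouse, and the log2 change was -0.02 with an interval of -0.26 to 0.22. Ndufs1, with further iron-sulfur clusters, was at 1048 TPM ± 38.3 in Paro/Neo and 1051 TPM ± 84.8 in vehicle hearts (SD, n = 3 each).

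In the Q module, 2 of 4 core subunits had a higher and 2 a lower mean. Ndufs8, an iron-sulfur subunit of the chain to ubiquinone, had 632, 573 and 580.3 TPM in Paro/Neo hearts and 670.0, 706 and 641 TPM in vehicle hearts. Every treated heart lay below every vehicle heart, and the nearest pair stood at 632 and 641 TPM. In the GENCODE M21 annotation of GRCm38 it spans bases 3908863 to 3912774 of chromosome 19. Its log2 change was -0.18 ± 0.09 (SE), with an interval of -0.39 to 0.04, an unadjusted p of 0.092 and an adjusted p of 0.703 by limma. Ndufs3 and Ndufs7 averaged 501 and 418 TPM in Paro/Neo hearts, against 498 and 433 TPM in vehicle hearts.

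Of the 9 supernumerary subunits of the matrix arm, 4 had a higher and 5 a lower mean. Ndufa5 had 3417, 3363 and 3355 TPM in Paro/Neo hearts and 3075, 3626 and 3444 TPM in vehicle hearts, with a log2 change of 0.002. The treated hearts lay within the range of the vehicle hearts. Ndufv3, an accessory protein of the N module, had 366, 538 and 518 TPM in Paro/Neo hearts and 536, 609 and 571 TPM in vehicle hearts. Paro/Neo replicate 1 was far below the other 5 libraries, while replicate 3 lay just under the vehicle range and replicate 2 just inside it. The log2 change was -0.29 ± 0.15 (SE, adjusted p 0.705 by limma), and it was -0.12 without Paro/Neo replicate 1. Ndufa12, a late-joining subunit, had 495, 477 and 416 TPM in Paro/Neo hearts and 416, 470.4 and 443 TPM in vehicle hearts. Its paralog Ndufaf2, the assembly factor that Ndufa12 is known to replace, had 131, 146 and 149 TPM in Paro/Neo hearts and 142, 149.7 and 153 TPM in vehicle hearts. Neither gene of the pair had groups that stood apart. Ndufa6, a subunit of the LYR protein family, averaged 1885 TPM in Paro/Neo and 2098 TPM in vehicle hearts, a log2 change of -0.15. Groups overlapped also for Ndufa2, Ndufa7, Ndufa9, Ndufs4 and Ndufs6, with log2 changes between -0.07 and 0.06.

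In the proximal membrane arm, 4 of 9 genes had a higher and 5 a lower mean, and the widest differences belonged to Ndufa10 and Ndufa11. Ndufa10, a subunit with a nucleoside kinase fold, had 669.7, 1088 and 911 TPM in Paro/Neo hearts and 1144, 964 and 1159 TPM in vehicle hearts. The low value was again that of Paro/Neo replicate 1, and the groups overlapped. Its log2 change of -0.32 ± 0.18 (SE, adjusted p 0.715 by limma) was -0.12 without that library and -0.47 without Paro/Neo replicate 2. Ndufa11, which sits beside the hinge of the membrane arm, had 130.1, 157 and 162 TPM in Paro/Neo hearts and 191, 178 and 167 TPM in vehicle hearts. All treated hearts were below all vehicle hearts, and the nearest values were 162 and 167 TPM. The log2 change was -0.26 ± 0.11 (SE), with an interval of -0.52 to 0.002, an unadjusted p of 0.052 and an adjusted p of 0.651 by limma, and it was -0.16 without Paro/Neo replicate 1. It spans bases 56717767 to 56722141 of chromosome 17. Ndufa3, a small membrane subunit and the most abundant of this arm, had 1424, 1682 and 1456 TPM in Paro/Neo hearts and 1491, 1788 and 1482 TPM in vehicle hearts. Ndufa8, a subunit facing the space between the membranes, had 996, 950.2 and 993 TPM in Paro/Neo hearts and 833, 1002 and 924 TPM in vehicle hearts, and its log2 change was 0.10. The treated hearts lay within the vehicle range. Of the others, Ndufa1, Ndufa13, Ndufc1, Ndufc2 and Ndufs5 had overlapping groups and log2 changes between -0.07 and 0.08.

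The distal membrane arm was the only block in which most means were higher in Paro/Neo hearts, 9 of 11, and its median log2 change was 0.06. Without Paro/Neo replicate 1 the count was 3 higher and 8 lower, with a median of -0.07. Ndufb8, the most abundant subunit of this arm, had 3290, 2862 and 3224 TPM in Paro/Neo hearts and 2818, 2880 and 2869 TPM in vehicle hearts. Treated replicates 1 and 3 stood above the narrow vehicle range and replicate 2 within it, for a log2 change of 0.13 (interval -0.09 to 0.35). Ndufb6 had 1063, 731 and 730 TPM in Paro/Neo hearts and 696, 873 and 773 TPM in vehicle hearts, and only Paro/Neo replicate 1 lay outside the vehicle range. Its log2 change was 0.09, and -0.09 without that library. Ndufab1 had 121, 72.1 and 95.2 TPM in Paro/Neo hearts and 76.0, 98.1 and 78.6 TPM in vehicle hearts, from 309 to 786 reads per library. Its log2 change was 0.17 (adjusted p 0.834 by limma), but -0.01 without Paro/Neo replicate 1. It was also -0.01 with array weights, which are estimated from the spread of these same values. Paro/Neo replicate 1 had the lowest such weight, 0.26, so the 2 alternatives are alike. Ndufb7 had 856, 1007 and 865 TPM in Paro/Neo hearts and 1069, 985 and 967 TPM in vehicle hearts, with a log2 change of -0.15. Ndufb3 was the member of this arm with groups apart, at 1396 to 1491 TPM in Paro/Neo hearts and 1350.1 to 1392 TPM in vehicle hearts. The nearest values were 1396 and 1392 TPM, and the log2 change was 0.06. Ndufb4, Ndufb5, Ndufb9 and Ndufb11, further distal subunits, also had their highest value in Paro/Neo replicate 1. Ndufb10 and Ndufb2 averaged 1863 and 1040.0 TPM in Paro/Neo hearts, against 1789 and 1127 TPM in vehicle hearts.

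Among the assembly factors 6 of 7 had a lower mean in Paro/Neo hearts and 1 a higher mean, with a median log2 change of -0.06. Ndufaf3, which acts with Ndufaf4 early in building the Q module, had the smallest p of all members. It had 43.9, 46.6 and 38.8 TPM in Paro/Neo hearts and 53.8, 58.0 and 50.7 TPM in vehicle hearts. Each treated heart was below each vehicle heart, by at least the gap between 46.6 and 50.7 TPM. Its log2 change was -0.32 ± 0.11 (SE), with an interval of -0.58 to -0.07, an unadjusted p of 0.018 and an adjusted p of 0.511 by limma. It was -0.25 without Paro/Neo replicate 3 and -0.28 without vehicle replicate 2, and the unadjusted limma p was then not under 0.05. Ndufaf3 spans bases 108565537 to 108567434 of chromosome 9. Ndufaf4, its partner, was at 113 TPM ± 17.4 in Paro/Neo and 110.4 TPM ± 9.11 in vehicle hearts (SD, n = 3 each), and its log2 change was 0.02, but -0.10 without Paro/Neo replicate 1.

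Ndufaf6, needed for the early module that carries mitochondrially encoded subunit ND1, had 33.9, 24.7 and 21.1 TPM in Paro/Neo hearts and 30.8, 33.3 and 31.96 TPM in vehicle hearts. Here Paro/Neo replicate 1 was the highest of the 6 libraries and the other 2 treated hearts were the lowest. The log2 change was -0.29 ± 0.17 (SE, adjusted p 0.723 by limma), and it was -0.47 without Paro/Neo replicate 1 (adjusted p 0.293 by limma) and -0.14 without Paro/Neo replicate 3. Ndufaf7, a methyltransferase of the matrix, had 36.0 to 38.7 TPM in Paro/Neo hearts and 38.9 to 39.6 TPM in vehicle hearts. Its groups did not overlap, and its log2 change was -0.05. Ndufaf1, a factor of the complex that assembles the membrane arm, and Ndufaf5, which modifies Ndufs7, averaged 136 and 28.1 TPM in Paro/Neo hearts, against 139.8 and 30.6 TPM in vehicle hearts. Without Paro/Neo replicate 1 all 7 assembly factors had a lower mean, with a median log2 change of -0.10, and without vehicle replicate 2 the count was 5 lower and 2 higher, with a median of -0.06.

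Ndufa4 had 7029, 5714 and 6190 TPM in Paro/Neo hearts and 5819, 7326 and 6171 TPM in vehicle hearts, and the groups overlapped. Its paralog Ndufa4l2, known as a gene induced by hypoxia, had 11.4, 19.1 and 24.0 TPM in Paro/Neo hearts and 19.5, 23.8 and 12.2 TPM in vehicle hearts. It was the least abundant and most variable of the 45 genes, with a within-group SD of 0.49 in log2 units and 58 to 157 reads per library. The log2 changes were -0.03 for Ndufa4 (interval -0.32 to 0.27) and -0.04 for Ndufa4l2 (interval -0.72 to 0.65), with 0.25 for Ndufa4l2 without Paro/Neo replicate 1. For Ndufa4l2 the interval reached beyond a 1.5-fold change in both directions.

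Levels of complex I genes varied less between mice of a group than those of all genes tested, at the median. The median within-group SD was 0.12 in log2 units for the 45 genes, against 0.17 for all genes tested. Counting error was smaller, with a median of 0.023 and a highest value of 0.131 for Ndufa4l2, as estimated from the inferred reads, and the SD between mice exceeded it in 44 of 45 genes. Ndufaf7 was the exception. Except for regulators of mitochondrial biogenesis (0.176 against 0.172), other mitochondrial lists also had a median SD between mice under that of all genes tested. It was 0.14, 0.11, 0.17 and 0.14 for complexes II to V. For the other complex I assembly genes and for import and protease genes it was 0.12 each. Genes of similar level were not compared, so the part of level in these SDs was not tested.

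The libraries differed in how the modules stood to each other. The median distance of the distal membrane arm from the vehicle mean was 0.20, -0.09 and -0.04 in Paro/Neo replicates 1 to 3, against -0.05, 0.11 and -0.06 in vehicle replicates 1 to 3. The N module core was at -0.03, 0.06 and -0.05 in Paro/Neo hearts and at 0.06, -0.12 and 0.002 in vehicle hearts. Vehicle replicate 2 thus had the highest distal arm and the lowest N module core of its group. Assembly factors were at -0.01, -0.11 and -0.09 in Paro/Neo hearts and at -0.01, 0.06 and -0.02 in vehicle hearts, and Paro/Neo replicates 2 and 3 were the lowest. A difference between modules was not tested.

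**Figure D4:**
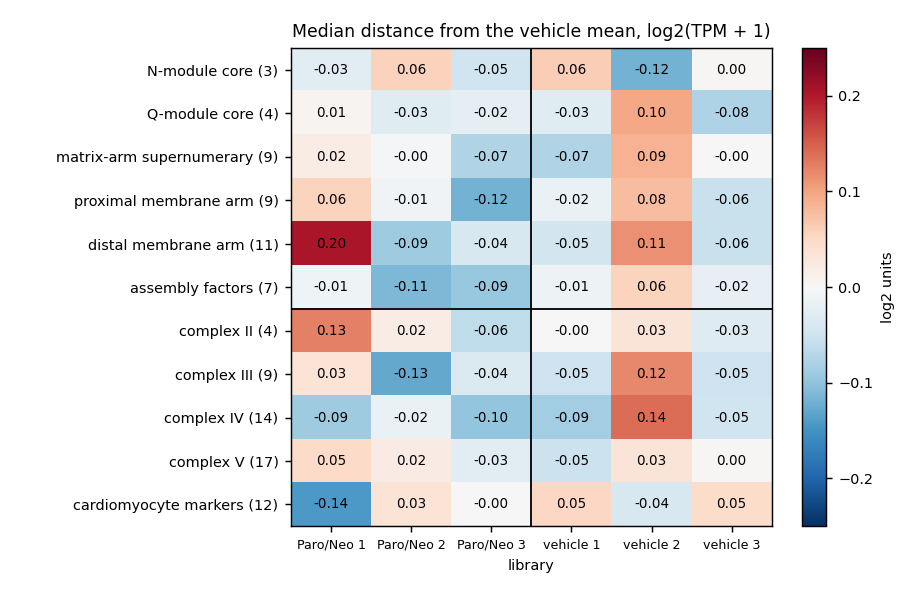
Median distance from the vehicle mean, in log2(TPM + 1), for each module of complex I (upper 6 rows) and for other lists (lower 5 rows) in each library, with the number of genes tested in brackets. The distal membrane arm in Paro/Neo replicate 1 has the largest distance shown, 0.20.

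In Paro/Neo replicate 1 the distances of the members spread most, with an SD of 0.274, against 0.1097 and 0.162 in Paro/Neo replicates 2 and 3 and 0.088 to 0.109 in the vehicle libraries. In that library 5 members lay over 0.3 above and 4 over 0.3 below the vehicle mean. Its distances fell with the GC content of the transcripts, at a Spearman coefficient of -0.365 over the 45 genes and -0.317 over all genes tested that have a GC value. In Paro/Neo replicates 2 and 3 the coefficients over the members were 0.248 and -0.045, and in vehicle replicates 1 to 3, measured from their own mean, they were 0.439, -0.221 and -0.186. Over all genes tested vehicle replicate 3 had -0.301. All members share the library and its depth, and the coefficients are a description. Cardiomyocyte markers in Paro/Neo replicate 1 had a median of -0.14, against 0.03 and -0.00025 in the other treated hearts. The part of GC content and of cardiomyocyte markers in these distances was not tested.

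**Figure D5:**
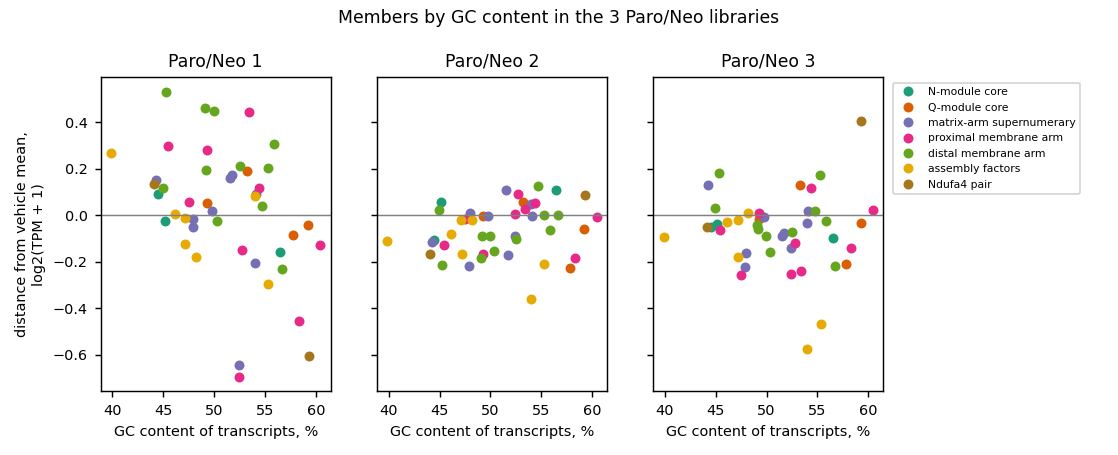
Distance of each gene from its vehicle mean, in log2(TPM + 1), against the GC content of its transcripts, for the 3 Paro/Neo libraries. Points of Paro/Neo replicate 1 spread most, with a Spearman coefficient of -0.365, while vehicle replicate 1, not drawn, had 0.439.

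Of 12 complex I assembly genes outside the Nduf naming that were tested, 3 had a higher and 9 a lower mean, with a median log2 change of -0.04, and 0 passed the adjusted threshold by limma, with 1 at an unadjusted p under 0.05. That gene was Foxred1, an oxidoreductase needed for assembly, at 63.8 TPM ± 4.65 in Paro/Neo and 80.0 TPM ± 6.08 in vehicle hearts (SD, n = 3 each), with a log2 change of -0.32 and an adjusted p of 0.497. Tmem186, a factor of the membrane arm, was at 24.4 TPM ± 2.87 in Paro/Neo and 27.3 TPM ± 1.10 in vehicle hearts. Partners of Ndufaf1 in the membrane arm assembly complex, Acad9, Ecsit and Tmem126b, averaged 29.1, 85.0 and 91.4 TPM in Paro/Neo hearts, against 30.0, 81.7 and 82.1 TPM in vehicle hearts. The partner of Ndufaf5, Ndufaf8, listed under the clone name 1810043H04Rik, was at 59.9 TPM ± 16.4 in Paro/Neo and 61.4 TPM ± 4.08 in vehicle hearts.

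Of the genes of the other respiratory complexes, 0 passed the adjusted threshold by limma and 0 had an unadjusted p under 0.05. Higher and lower means numbered 2 and 2 for complex II, 3 and 6 for complex III, 5 and 9 for complex IV, and 8 and 9 for the ATP synthase, complex V. Median log2 changes were 0.003, -0.02, -0.04 and -0.01 in that order. Without Paro/Neo replicate 1 the higher and lower means numbered 1 and 3, 1 and 8, 4 and 10, and 4 and 13. The medians were then -0.02, -0.07, -0.06 and -0.05. Without vehicle replicate 2 the numbers were 2 and 2, 6 and 3, 8 and 6, and 11 and 6. Medians without that library were 0.02, 0.02, 0.04 and 0.01. In complex II the smallest p was that of Sdhc, a membrane anchor, at 779.7 TPM ± 126 in Paro/Neo and 647 TPM ± 67.6 in vehicle hearts, followed by the flavoprotein Sdha. Their log2 changes were 0.26 for Sdhc and -0.19 for Sdha, and without Paro/Neo replicate 1 they were 0.14 and -0.004. In complex III it was that of Uqcrq, at 1785 TPM ± 104 in Paro/Neo and 2094 TPM ± 209 in vehicle hearts, followed by Uqcr11. In complex IV, Cox6a2, the heart and muscle form of its subunit, was at 2778 TPM ± 469.6 in Paro/Neo and 3252 TPM ± 343 in vehicle hearts, followed by Cox8a. Their log2 changes were -0.24 and -0.15, and -0.10 and -0.07 without Paro/Neo replicate 1. In complex V, Atp5g2 was at 1.32 TPM ± 1.08 in Paro/Neo and 2.22 TPM ± 0.32 in vehicle hearts, followed by Atp5d. Atp5g2 lay near the filter of 1 TPM, at 0.96, 2.54 and 0.48 TPM in Paro/Neo hearts, and its groups overlapped. The lowest adjusted p of these 4 lists lay between 0.673 and 0.735.

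Regulators of mitochondrial biogenesis had 10 higher and 7 lower means and a median log2 change of 0.07, with 0 past the adjusted threshold by limma and 1 at an unadjusted p under 0.05. Ppargc1b, a coactivator of respiratory genes, was at 3.45 TPM ± 0.70 in Paro/Neo and 5.19 TPM ± 0.22 in vehicle hearts (adjusted p 0.483), and Tfb2m, a mitochondrial transcription factor, at 29.2 TPM ± 2.87 and 25.2 TPM ± 2.23. The relative of Ppargc1b, Ppargc1a, was at 60.1 TPM ± 5.82 and 53.1 TPM ± 6.77. Nrf1, whose motif is printed above, was at 3.97 TPM ± 0.42 in Paro/Neo and 3.76 TPM ± 0.73 in vehicle hearts, and Gabpa was at 45.6 TPM ± 4.59 and 41.2 TPM ± 3.63. Mitochondrial import and protease genes had 7 higher and 10 lower means, with Timm17a, a part of the inner membrane import channel, at 427 TPM ± 28.6 in Paro/Neo and 499 TPM ± 27.3 in vehicle hearts (adjusted p 0.646, unadjusted p 0.046) and Timm50 at 53.0 TPM ± 1.29 and 61.9 TPM ± 5.79.

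Of the cell type markers tested, 0 passed the adjusted threshold by limma in any list, and the lowest adjusted p was 0.113. Cardiomyocyte markers had 6 higher and 6 lower means and a median log2 change of -0.01. The 2 smallest p went in opposite directions. Myl3 was at 11987 TPM ± 985 in Paro/Neo and 9612 TPM ± 296 in vehicle hearts (limma adjusted p 0.497). Ryr2 was at 172 TPM ± 42.8 in Paro/Neo and 221 TPM ± 6.74 in vehicle hearts (limma adjusted p 0.651). Their log2 changes were 0.32 for Myl3 and -0.40 for Ryr2. Fibroblast markers had a lower mean in 8 of 8 genes, with a median of -0.48. Of these, 4 had an unadjusted limma p under 0.05, against 4.37% of all genes tested in that direction. Cardiomyocyte, endothelial, macrophage, neutrophil and erythroid markers had 1 such gene each, higher or lower. Fibroblast log2 changes were -0.83, -0.82, -0.78 and -0.66 for Col1a1, Col3a1, Col1a2 and Postn. They were -0.30, -0.11, -0.03 and -0.02 for Tcf21, Pdgfra, Lum and Dcn. Library medians of the fibroblast list were -0.48, -0.27 and -0.28 in Paro/Neo hearts and -0.03 to 0.02 in vehicle hearts. The summed level of fibroblast markers was 2227 to 2465 TPM in Paro/Neo hearts and 2506 to 2642 TPM in vehicle hearts. Most of that sum was Dcn, at 1726 to 1891 TPM in Paro/Neo and 1809 to 1867 TPM in vehicle hearts, with overlapping groups. Without Paro/Neo replicate 1 the count of fibroblast markers was 6 lower and 2 higher, with a median of -0.28. Endothelial markers had a lower mean in 6 of 7 with a median log2 change of -0.27, and -0.11 without Paro/Neo replicate 1. Their library medians were -0.45, -0.12 and -0.10 in Paro/Neo hearts and -0.03, 0.18 and -0.11 in vehicle hearts, so the groups overlapped. Smooth muscle and pericyte markers had a lower mean in 6 of 7 with a median of -0.24, and -0.08 without that library. Their library medians were -0.57, -0.21 and 0.08 in Paro/Neo hearts and 0.04, -0.09 and 0.05 in vehicle hearts. Macrophage markers had a higher mean in 6 of 7, with a median of 0.17. That was 5 of 7 without Paro/Neo replicate 1, with a median of 0.25. Without vehicle replicate 3 it was 4 of 7, with a median of 0.09. Tested neutrophil markers had a higher mean in 2 of 2. Erythroid markers had a lower mean in 4 of 4, with a median of -0.26, and -0.41 without Paro/Neo replicate 1. Without vehicle replicate 3 the erythroid count was 2 lower and 2 higher, with a median of -0.002. Of the adipocyte markers 1 was higher and 1 lower, and 0 of 8 lymphocyte markers were high enough to test. The part of these cell types in the complex I values was not tested.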

How the data were processed

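Members and lists were chosen with earlier results of these data known. Values are TPM as deposited by the authors, 1 column per mouse, summing to the same total in each library. Per the labels' protocols, RNA of an integrity number above 7 was used for stranded KAPA mRNA libraries, read at 76 bp. The submitters' processing notes name mm10, STAR 2.5.3a, FastQC 0.11.5, edgeR, Subread and featureCounts, without saying what each was used for. Gene models, strand setting and treatment of multiple matches: not given in the sources used here.

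A gene entered the test if 3 or more of the 6 libraries had it at 1 TPM or above. Values were tested on log2(TPM + 1), which understates changes of low genes, with limma 3.58.1 in R 4.3.3 (trended, 4.03 prior degrees of freedom), Paro/Neo minus vehicle, two-sided, Benjamini-Hochberg over all 12409 genes, threshold 0.05. The SE and 95% interval are moderated. Exact permutation of 3 against 3 mice gives no p below 0.10 and was not used. Sample titles gave groups and replicate numbers. Same-numbered mice are not known to be paired, and the fit took them as unpaired. Deviations of libraries with the same number in the titles correlated at -0.053, -0.036 and -0.122. With 3 mice per group these values cannot decide whether mice were paired.

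Reads were inferred from ratios of low values. In all, 17574 of 17574 features above 0 came out whole within 0.001 of a read, as lower estimates that cover counting error only. GC content, exon lengths and 76-base windows came from GENCODE M21 (GRCm38), where 17902 of 18158 features and all 45 members matched 1 gene. The fit and the read inference were tested on simulated data. Named by a rule were members with an unadjusted p under 0.05, the 5 largest differences each way and the 2 paralog pairs. Also named were the most abundant and the smallest-p gene of each role and, per list, the 2 smallest p. Of the cell type lists, this last part was followed only for cardiomyocyte and fibroblast markers. A member counts in the summaries but is not reported here by itself. Other members named in the text, Acad9, Ecsit, Tmem126b, 1810043H04Rik, Ppargc1a, Nrf1, Gabpa and Myl2 were named after their values were seen. So were the fibroblast markers other than Col3a1 and Postn. Ventricles were snap-frozen, 1 library per mouse.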

Additional observations from a re-analysis of the deposited data

How the results depend on the processing

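No complex I gene was called, higher or lower, by limma under the 16 alternatives run, and the lowest adjusted p of a member ranged from 0.293 to 0.896. Over all genes tested, calls numbered 15 higher and 2 lower. They were 5 and 1 with no filter, 8 and 1 without the intensity trend, 22 and 4 with array weights, and 19 and 1 at a minimum of 5 TPM. With the replicate block, where same-numbered mice are not known to be paired, they were 25 and 2, and with the block and a GC correction 4 and 1. Leaving out 1 library gave 4 to 23 higher and 0 to 4 lower.

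Members with a higher mean numbered 20, and 13 to 27 with 1 library left out: 13 without Paro/Neo replicate 1 and 27 without vehicle replicate 2. An unadjusted limma p under 0.05 was held by 1 member, against 944 of all genes tested. With array weights it was 4 members (Ndufa11, Ndufaf3, Ndufaf6 and Ndufs8), against 1222 genes. With the replicate block and GC correction, or without vehicle replicate 2, it was 0 members, against 907 and 703 genes. The cause was not tested in any of these cases.

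Of the 45 members, 26 turned sign in at least 1 alternative, with reported log2 changes of at most 0.17 in size. For those named by the rule, the values after the turn were 0.0020 for Ndufa4 and 0.0080 for Ndufv2 under trimmed mean scaling, and 0.0021 for Ndufv2 under median of ratios scaling. With array weights they were 0.0325 for Ndufa3, -0.0236 for Ndufb6, 0.0128 for Ndufv1, -0.0105 for Ndufab1 and 0.1606 for Ndufa4l2. With a GC correction, with or without the replicate block, they were 0.0050 for Ndufv1 and 0.0259 for Ndufa4l2. Leaving out 1 library moved Ndufa4 between -0.1075 and 0.0694, Ndufa5 between -0.0650 and 0.0540, Ndufv2 between -0.0772 and 0.0447, Ndufa3 between -0.1350 and 0.0285, Ndufb6 between -0.0900 and 0.1806, Ndufv1 between -0.1268 and 0.0062, Ndufab1 between -0.0146 and 0.3577, Ndufa4l2 between -0.2921 and 0.2478, and the adipocyte gene Adipoq between -0.1570 and 0.2359.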
